A study of Homo sapiens with 6 samples.

Results

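Integrins are the cell-surface receptors that hold cells to the matrix around them, and laminins and collagens are among the matrix proteins they hold on to. Genes of these 3 kinds were taken from the count table by their symbols: integrin α and β subunit genes, laminin α, β and γ chain genes, and collagen chain genes. The pattern matched 81 of 58735 rows, of which 17 were integrin α, 8 integrin β, 12 laminin and 44 collagen genes. Of these, 47 held 60 or more counts summed over the 6 libraries and are described below, namely 10 integrin α, 6 integrin β, 10 laminin and 21 collagen genes.

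Each integrin is a pair of 1 α and 1 β subunit, and the pair sets what it binds. The β1 subunit pairs with most α subunits, αV pairs with several β subunits to bind ligands with the RGD peptide, and α6 with β4 forms the hemidesmosome receptor of epithelia. Laminins are cross-shaped trimers of an α, a β and a γ chain that build the basement membrane, and collagens are triple helices of fibrils, basement membrane networks and a few membrane proteins. In the normal prostate the basal cells sit on the basement membrane with hemidesmosomes, and luminal cancer cells are known to lose much of that anchorage.

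RNA was sequenced from VCaP cells, an androgen-responsive human prostate cancer cell line. One group stably carried a short hairpin RNA against NEDD9 (shNEDD9, 3 libraries) and the other a non-targeting hairpin (shNTC, 3 libraries), and both grew in DMEM with 10% FBS. NEDD9 encodes a Cas scaffold protein that relays signals from integrins at focal adhesions, and the study asked which genes its silencing alters. The labels call the libraries biological triplicates and do not say whether they came from separate infections or from clones, so each p-value reflects spread among these libraries alone, part or all of which may be technical.

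NEDD9 itself had 137.1, 138 and 135.9 CPM (read counts scaled to a common library total) in shNEDD9 replicates 1, 2 and 3 and 362.3, 339.3 and 365.4 CPM in the shNTC replicates. Every shNEDD9 library was below every shNTC library, and the transcript was 2.62-fold lower (log2 fold change -1.39, SE 0.04, called by edgeR). Libraries held 5956486 to 9902002 counts in shNEDD9 and 3217276 to 7492244 counts in shNTC. A count of 3, taken as the limit of detection, equals 0.303 to 0.504 CPM in shNEDD9 and 0.403 to 0.943 CPM in shNTC libraries, and this covers counting error only. The 11 luminal markers listed for VCaP cells were all detected, with a summed level of 17380 to 17940 CPM in shNEDD9 and 15080 to 15320 CPM in shNTC. KLK2, which encodes a kallikrein, carried most of that sum, at 11240 CPM in shNEDD9 and 9403 CPM in shNTC. Of the 11 markers, 6 were lower, 3 higher and 2 not called, with a median log2 fold change of -0.42. Markers of other cell types were low. Summed levels were 47.5 to 55.5 against 27.1 to 28.8 CPM for 10 fibroblast markers, 2.54 to 2.85 against 2.02 to 3.46 CPM for 6 endothelial markers and 3.93 to 4.45 against 4.84 to 6.42 CPM for 5 basal markers, shNEDD9 against shNTC each time. The 8 leukocyte markers summed to 5.71 to 6.66 CPM in shNEDD9 and 18.4 to 25.5 CPM in shNTC. Most of the fibroblast sum was LUM, while THY1 and FAP had 0 counts, and most of the leukocyte sum was LYZ and CD14, while CD3E, CD68 and TYROBP had 0 counts. In RNA from whole cultures, fewer cells with a transcript and less transcript per cell cannot be told apart. Common variation between replicates was small (a biological coefficient of variation of 1.65%). Between libraries of 1 group the chi-square of the counts was 1.14 to 1.21 times its degrees of freedom, above what sampling alone gives. These values do not tell biological from technical spread. Each library was counted as 1 replicate because the labels call them biological triplicates.

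Silencing of NEDD9 went with lower transcripts of every tested integrin β gene and of most laminin and collagen genes that changed, while some α subunits and a few collagens were higher. Of the 47 genes, 46 passed the filter on low counts and were tested. The gene left out was the integrin β gene ITGB2, which was higher in every shNEDD9 library than in any shNTC library, from few counts. At an adjusted p under 0.05 (edgeR quasi-likelihood test, Benjamini-Hochberg adjustment over all 13958 genes tested) 25 were lower and 12 higher in shNEDD9, and 9 were not called. Over all genes tested, 71.4% were called, 35.9% as lower and 35.5% as higher, against 80.4% of the 46 genes, 54.3% as lower and 26.1% as higher. At least 2-fold decreases were seen in 13 of the 46 (28.3%), where 9.22% of all genes tested fell that far, and at least 2-fold increases in 4 (8.70%), where 7.67% of all genes rose that far. The median log2 fold change was -0.33 over the 46 genes and 0.00 over all genes tested. Groups were apart in 36 of the 46, against 71.8% of all genes. Since 6 of the 47 genes had under 30 counts in 1 of the 2 groups and reached 60 through the other (COL14A1, ITGB2 and LAMA1 through shNEDD9, COL17A1, COL27A1 and ITGA9 through shNTC), such genes were likelier to differ. Among the 41 tested genes with at least 30 counts in each group, 22 were lower, 11 higher and 8 not called.

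**Figure D1:**
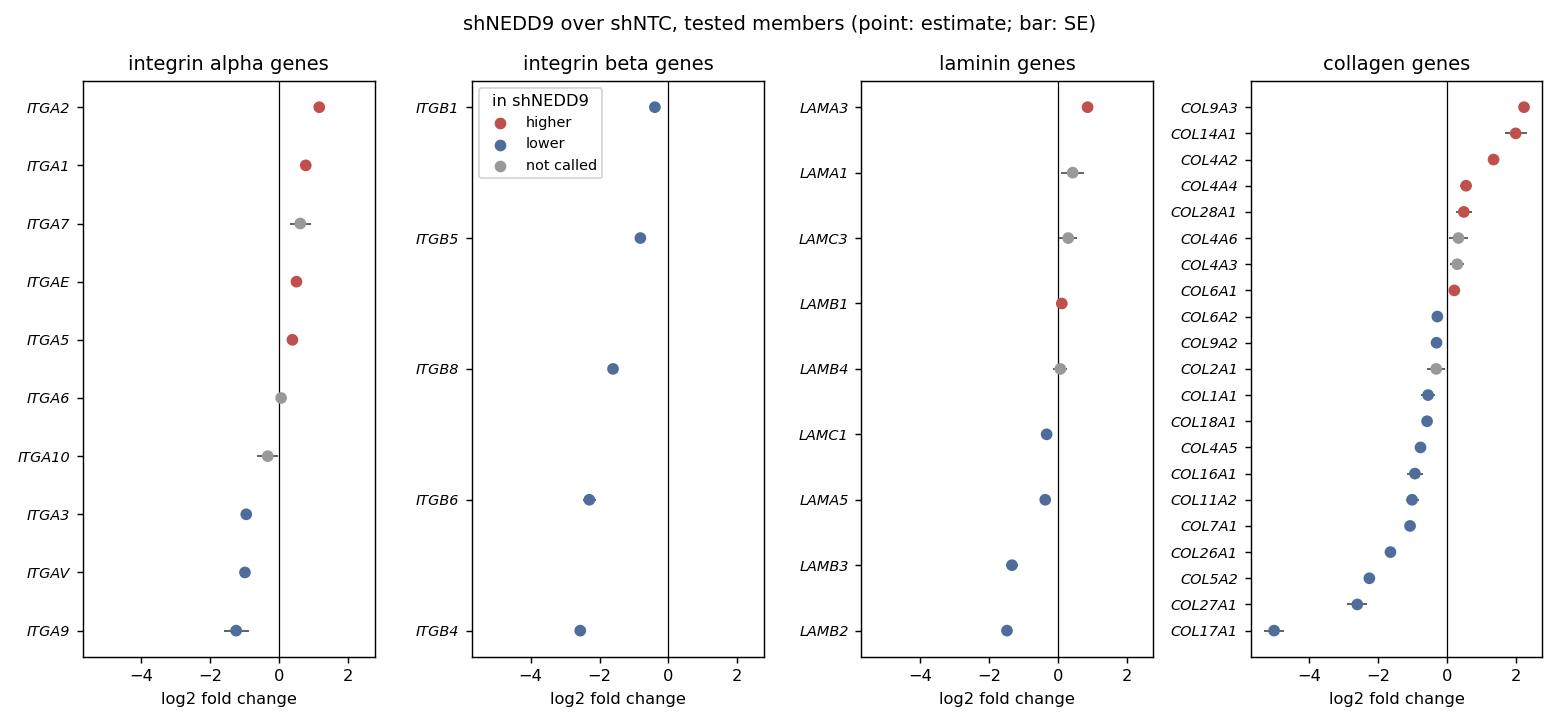
Log2 fold change (shNEDD9 over shNTC, x axis) of 45 of the 46 tested genes in 4 panels by family, with the SE as a bar and the call as the colour. All 5 tested integrin β genes lie below 0, and COL17A1 lies farthest from 0, at -5.02. ITGB2, higher in shNEDD9 from few counts, was not tested and is not shown.

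Integrin β subunits are taken first. Values below are CPM in replicates 1, 2 and 3 of each group. ITGB4 (ENSG00000132470, GRCh38 chromosome 17, 75721328 to 75757818, plus strand), the long-tailed partner of α6 in hemidesmosomes, stood at 8.56, 8.78 and 7.66 CPM in shNEDD9 against 48.95, 53.4 and 46.3 CPM in shNTC cells. Every shNEDD9 library was far below every shNTC library, and the level was 5.91-fold lower (log2 fold change -2.56, SE 0.11, edgeR adjusted p = 7.18e-130). ITGB6 (chromosome 2, 160099666 to 160200313, minus strand), the epithelial αV partner that activates latent TGF-β, had 3.19, 3.31 and 2.72 CPM in shNEDD9 and 15.7, 16.02 and 13.6 CPM in shNTC. It was 4.92-fold lower, again with no overlap. ITGB6 shares 966 of its 4687 exon bases with a transcript on the same strand, and its share of those reads was not tested. ITGB8, another αV partner that activates latent TGF-β, had 4.36, 5.85 and 4.74 CPM in shNEDD9 and 13.3, 18.5 and 15.96 CPM in shNTC, a 3.05-fold decrease (log2 fold change -1.61, SE 0.16).

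The 2 abundant β subunits fell less. ITGB5, an αV partner that binds vitronectin, had 172.2, 162.3 and 161.6 CPM in shNEDD9 and 279, 300.4 and 295.3 CPM in shNTC and was 1.76-fold lower. ITGB1, the subunit shared by most α chains, had 196.9, 191.8 and 192.6 CPM in shNEDD9 and 259.8, 252 and 249.5 CPM in shNTC and was 1.31-fold lower (log2 fold change -0.39, SE 0.04, edgeR adjusted p = 1.02e-27). Neither gene had overlapping groups. ITGB2, the β subunit of leukocyte integrins, went the other way at the edge of detection, with 21, 25 and 13 counts in shNEDD9 and 2, 3 and 7 counts in shNTC. It did not pass the filter in the analysis of all libraries. In the 6 alternatives in which it was tested it was called higher each time, by 2.36-fold to 5.12-fold (edgeR adjusted p between 9.19e-07 and 0.0115). These reuse the same libraries, so they are not separate support. ITGB2 also reached 60 counts mainly through shNEDD9, which made a difference likelier. Its α partners ITGAL, ITGAX and ITGAD had 0 counts in every library, and ITGAM had 5 counts, all in shNTC replicate 1.

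Levels can be compared between genes per kilobase (kb) of exon. On that scale ITGB1 and ITGB5 made up most of the β subunit transcripts in both groups. ITGB1 held 53.3 ± 0.68% of the summed CPM per kb of the 6 β genes in shNEDD9 and 42.6 ± 1.37% in shNTC, and ITGB5 held 42.4 ± 0.48% and 45.6 ± 1.28%, shNEDD9 and shNTC in turn (SD, n = 3 each). The share of ITGB4 was 2.04 ± 0.13% in shNEDD9 and 7.39 ± 0.42% in shNTC, and that of ITGB6 1.08 ± 0.10% and 3.25 ± 0.26%. The β subunit transcripts were thus more evenly spread over the genes in shNTC than in shNEDD9 libraries.

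Integrin α subunits moved in both directions. ITGAV (chromosome 2, 186590065 to 186680901, plus strand), the RGD-binding αV chain, had 72.2, 73.5 and 79.6 CPM in shNEDD9 and 152.5, 147 and 150.4 CPM in shNTC. It was 1.99-fold lower (log2 fold change -0.99, SE 0.05, edgeR adjusted p = 4.26e-92), as were its tested β partners ITGB1, ITGB5, ITGB6 and ITGB8. ITGAV, ITGB5, ITGB6 and ITGB8 together summed to 248.5 ± 3.49 CPM in shNEDD9 and 472.6 ± 10.9 CPM in shNTC. ITGA3, a laminin-binding chain that pairs with β1, had 46.7, 44.6 and 48.0 CPM in shNEDD9 and 93.3, 94.9 and 84.4 CPM in shNTC and was 1.94-fold lower. ITGA9, which pairs with β1 and binds tenascin, was also lower, but from 3, 9 and 13 counts in shNEDD9 and 22, 10 and 11 counts in shNTC (log2 fold change -1.25, SE 0.36, edgeR adjusted p = 0.00092). It shares 535 exon bases with its antisense transcript.

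Among the collagen-binding α chains ITGA1 and ITGA2 were higher and ITGA10 was not called. ITGA2 (chromosome 5, 52989326 to 53094779, plus strand), the α2 chain of the epithelial collagen receptor α2β1, had 25.9, 25.9 and 28.03 CPM in shNEDD9 and 13.3, 9.74 and 11.4 CPM in shNTC. ITGA1, the α1 chain of the collagen receptor α1β1 and the neighbour of ITGA2 on chromosome 5, had 16.8, 20.4 and 20.5 CPM in shNEDD9 and 13.2, 9.74 and 10.2 CPM in shNTC. In both genes every shNEDD9 library was above every shNTC library, and the increases were 2.24-fold and 1.71-fold (log2 fold changes 1.17, SE 0.11, and 0.77, SE 0.12). The 20 tested genes nearest to ITGA2, 10 on each side, had a median log2 fold change of 0.52, and those nearest to ITGA1 one of 0.59, so other genes of this stretch were higher too. The part of the neighbourhood in the increase was not tested. ITGA1 shares 475 exon bases with PELO and 571 with a pseudogene, both on its own strand. PELO was not called (23.6 CPM in shNEDD9, 26.95 CPM in shNTC), and the part of these 2 genes in the ITGA1 counts was not tested. ITGA10, which binds collagen in cartilage, stood at 2.15 ± 0.44 CPM in shNEDD9 and 2.66 ± 0.40 CPM in shNTC (log2 fold change -0.33, SE 0.30).

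ITGA6 (chromosome 2, 172427354 to 172506282, plus strand), the α6 chain of laminin receptors, differed little, with 117.8, 120.1 and 114.7 CPM in shNEDD9 and 118.2, 105.9 and 110.5 CPM in shNTC. The groups overlapped and ITGA6 was not called (log2 fold change 0.06, SE 0.05, edgeR adjusted p = 0.28), and it was called higher once a trend of fold change with exon length was removed (0.13, edgeR adjusted p = 0.0071). ITGA5, the fibronectin receptor chain α5, rose 1.31-fold to 12.4, 14.6 and 14.6 CPM in shNEDD9, against 9.95, 10.4 and 11.9 CPM in shNTC. That call ended without shNTC replicate 1 (edgeR adjusted p = 0.0861). ITGAE, the αE chain that binds E-cadherin with β7, rose 1.42-fold (39.8 ± 2.999 CPM in shNEDD9, 27.9 ± 2.46 CPM in shNTC). Its partner ITGB7 had 2 counts in shNEDD9 and 12 in shNTC, all libraries at 5 counts or fewer. ITGAE shares 427 exon bases with HASPIN, a mitotic kinase gene on the other strand that rose 2.90-fold. Without the strand setting of the counting, how much of the ITGAE counts came from HASPIN was not tested. ITGA7, a laminin-binding chain of muscle, stood at 2.93 ± 1.27 CPM in shNEDD9 and 1.99 ± 0.31 CPM in shNTC and was not called (edgeR adjusted p = 0.0564), though it was without shNEDD9 replicate 1 (edgeR adjusted p = 0.0103).

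**Figure D2:**
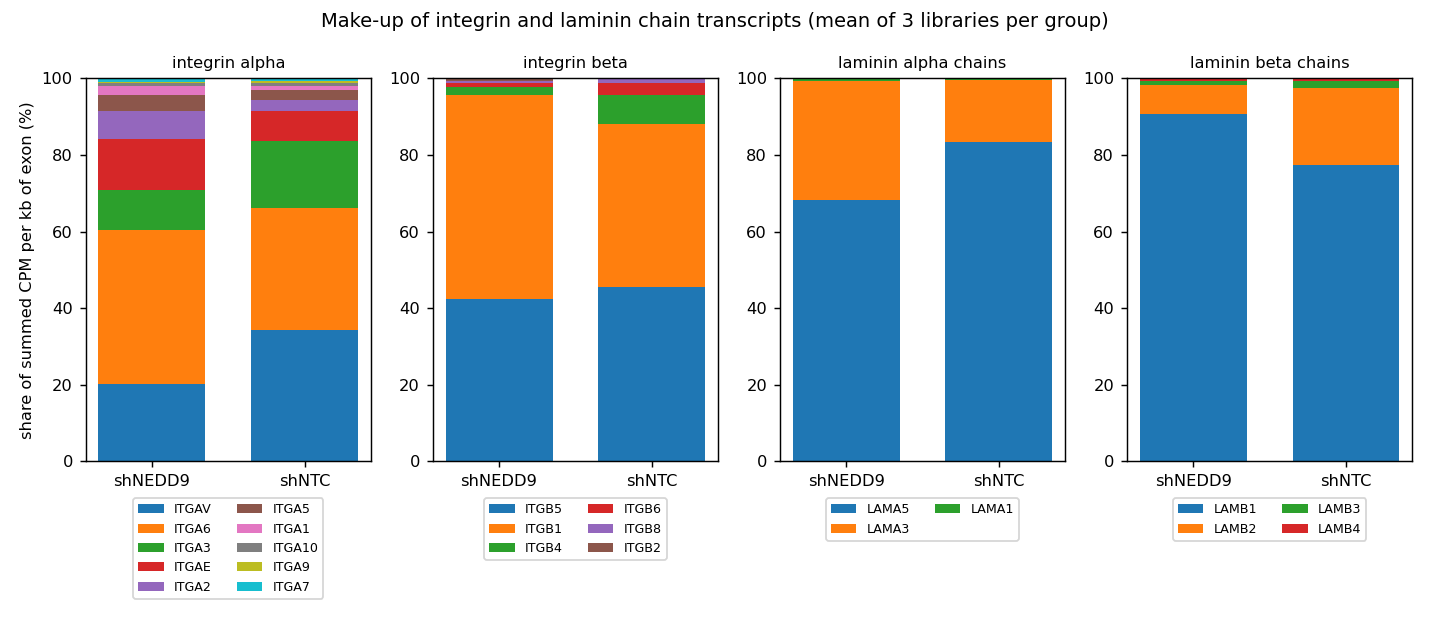
Share (%) of each gene in the summed CPM per kb of exon of its set, as the mean of 3 libraries, with shNEDD9 as the left and shNTC as the right bar of each panel. In shNEDD9 the shares of ITGAV, ITGB4 and LAMB2 are smaller and those of ITGA6, ITGB1, LAMA3 and LAMB1 larger than in shNTC.

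Because subunits work in pairs, the raw counts of partner genes were also set against each other within each library, which needs no scaling between libraries. Of 22 pairs of partners or near paralogs, 19 had ratios that did not overlap between the groups. Taken singly, 71.8% of all genes tested had groups apart. The share among pairs of other genes was not computed, so the 19 are not a result about partner genes. In an exact permutation test of 3 against 3 libraries the smallest two-sided p is 0.1, which 19 pairs reached (0.116 after Benjamini-Hochberg adjustment over the 22 pairs), so none could pass 0.05. The log2 ratio of ITGB4 to ITGA6 was -3.78, -3.77 and -3.90 in shNEDD9 and -1.27, -0.99 and -1.254 in shNTC. The α6 transcript thus met far less β4 transcript in shNEDD9 cells, while its ratio to ITGB1 was slightly higher, at -0.72 ± 0.04 in shNEDD9 and -1.19 ± 0.06 in shNTC (SD, n = 3 each). Relative to ITGAV, ITGB6 was lower by 1.30 and ITGB8 by 0.68 on the log2 scale (differences -1.30 and -0.68), while the ratio of ITGB5 to ITGAV overlapped between the groups (1.14 ± 0.12 in shNEDD9, 0.96 ± 0.08 in shNTC, exact permutation p = 0.2). Relative to ITGB1, ITGA2 was higher by 1.61, ITGA1 by 1.196 and ITGA5 by 0.76, and ITGA3 lower (difference -0.58). ITGA9 was lower too relative to ITGB1 (difference -1.08), but its lowest library held 3 counts.

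**Figure D3:**
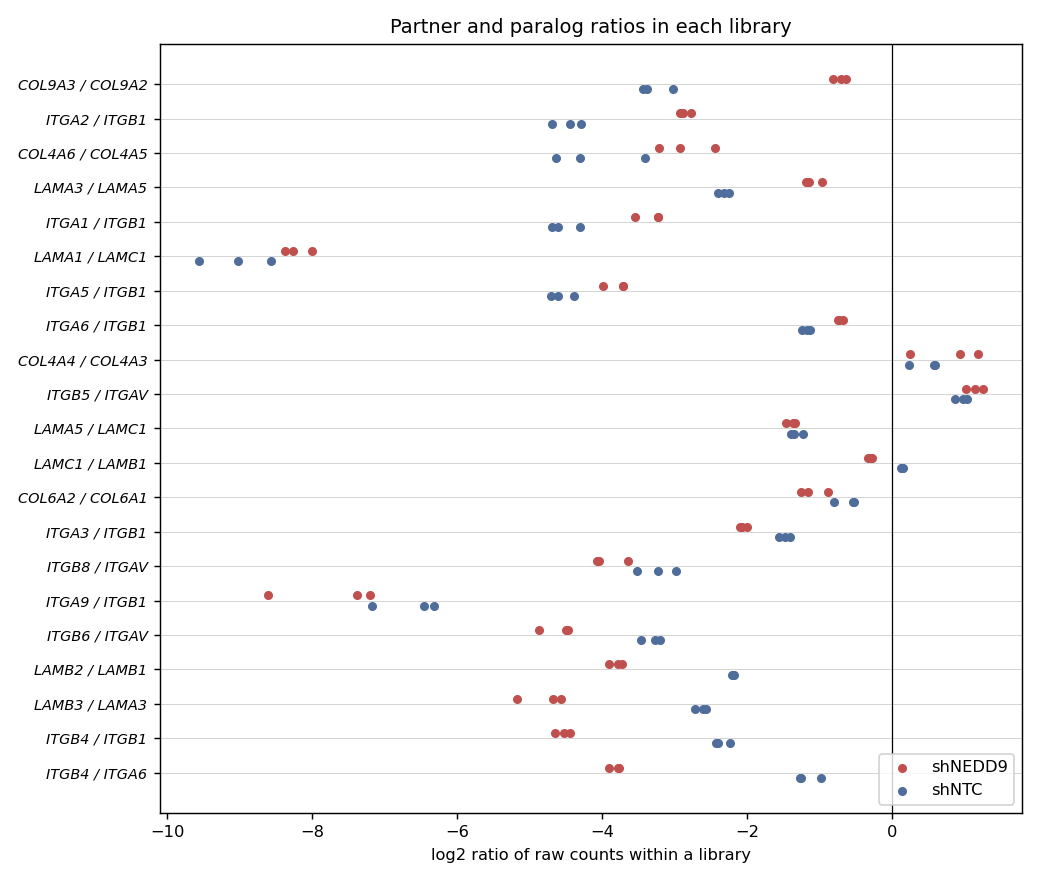
Log2 ratio of the raw counts of 2 partner or paralog genes (x axis) in each of the 6 libraries for 21 of the 22 pairs, ordered by the difference between the groups. The points of the groups are apart in 18 of the pairs plotted, with the largest differences for ITGB4 to ITGA6 (-2.65) and COL9A3 to COL9A2 (2.56). Taken singly, 71.8% of all genes tested had groups apart.

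Among the laminins, the 3 genes of highest CPM, LAMB1, LAMC1 and LAMA5, changed little. LAMB2 and the epithelial β3 chain gene LAMB3 fell, and LAMA3 rose. LAMB1, the β1 chain, had 819.2, 822.6 and 788.8 CPM in shNEDD9 and 740.2, 749.7 and 747.8 CPM in shNTC. LAMC1, the γ1 chain, had 670.7, 651.5 and 649.5 CPM in shNEDD9 and 817.6, 817.2 and 824.1 CPM in shNTC. LAMA5, the α5 chain of adult epithelial basement membranes, had 243.9, 253.1 and 256.9 CPM in shNEDD9 and 320.5, 347.2 and 313.9 CPM in shNTC. None of the 3 genes had overlapping groups, and all 3 were called, LAMB1 as 1.09-fold higher, LAMC1 as 1.249-fold and LAMA5 as 1.28-fold lower. With the length trend removed the log2 fold change of LAMA5 was -0.13 (main value -0.36), that of LAMC1 -0.18 (main value -0.32) and that of LAMB1 0.25 (main value 0.12), and all stayed past the threshold. The ratio of LAMA5 to LAMC1 overlapped between the groups (-1.39 ± 0.06 in shNEDD9, -1.33 ± 0.08 in shNTC, exact permutation p = 0.5).

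LAMB2, the β2 chain, fell 2.78-fold, with 54.9, 60.03 and 59.7 CPM in shNEDD9 and 163.1, 162.4 and 162.5 CPM in shNTC (log2 fold change -1.47, SE 0.05, edgeR adjusted p = 3.00e-186). Of the 20 tested genes nearest to LAMB2 on chromosome 3, 85% had a log2 fold change below 0, with a median of -0.31, less than that of LAMB2. Among the β chains, the share of LAMB1 in CPM per kb was 90.7 ± 0.22% in shNEDD9 and 77.4 ± 0.10% in shNTC, and that of LAMB2 7.73 ± 0.46% in shNEDD9 and 20.02 ± 0.16% in shNTC. LAMB4, a little studied β chain next to LAMB1 on chromosome 7, was not called (6.14 ± 1.22 CPM in shNEDD9, 5.64 ± 0.15 CPM in shNTC), nor were LAMA1, the embryonic α1 chain (2.23 ± 0.28 and 1.61 ± 0.53 CPM, shNEDD9 and shNTC in turn), and LAMC3, the γ3 chain (3.60 ± 0.81 and 3.12 ± 1.15 CPM, in the same order).

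The α3 and β3 chains of laminin-332, the ligand of α6β4 in epithelia, moved in opposite directions. LAMB3 (chromosome 1, 209614870 to 209652466, minus strand), its β3 chain, had 4.87, 4.83 and 3.13 CPM in shNEDD9 and 9.95, 11 and 10.6 CPM in shNTC, a 2.51-fold decrease. LAMA3 (chromosome 18, 23689443 to 23956222, plus strand), its α3 chain, had 125.2, 114.3 and 112.5 CPM in shNEDD9 and 60.5, 72.6 and 62.9 CPM in shNTC, a 1.83-fold increase (log2 fold change 0.87, SE 0.05, edgeR adjusted p = 1.34e-56). LAMB3 was thus lower and LAMA3 higher in each shNEDD9 library than in each shNTC library. The log2 ratio of LAMB3 to LAMA3 was -4.81 ± 0.32 in shNEDD9 and -2.63 ± 0.08 in shNTC (SD, n = 3 each). That of LAMA3 to LAMA5, an α chain of LAMC1-containing laminins, was -1.10 ± 0.12 in shNEDD9 and -2.33 ± 0.07 in shNTC (SD, n = 3 each). LAMA3 gives rise to a long and a short α3 chain from separate starts, and the gene counts do not tell them apart.

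Start windows of LAMA3 and LAMB3 are shown because these chains of 1 trimer went in opposite directions. Each holds 250 bases before to 50 after a RefSeq transcript start (GRCh38.p14), 5′ to 3′ on the gene's strand, with matches to the AP-1 type motif TGANTCA, which reads the same on both strands, in capitals. The LAMA3 window (chr18:23872770-23873069, plus strand) lies inside the gene and the LAMB3 window (chr1:209651325-209651624, minus strand) is the 1 of 3 listed for LAMB3 that holds a match.
LAMA3: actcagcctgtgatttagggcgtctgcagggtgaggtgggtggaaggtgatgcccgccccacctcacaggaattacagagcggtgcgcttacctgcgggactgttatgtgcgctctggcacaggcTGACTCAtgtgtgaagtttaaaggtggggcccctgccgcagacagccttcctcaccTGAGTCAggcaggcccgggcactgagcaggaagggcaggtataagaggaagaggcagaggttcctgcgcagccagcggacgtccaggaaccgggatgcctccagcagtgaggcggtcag
LAMB3: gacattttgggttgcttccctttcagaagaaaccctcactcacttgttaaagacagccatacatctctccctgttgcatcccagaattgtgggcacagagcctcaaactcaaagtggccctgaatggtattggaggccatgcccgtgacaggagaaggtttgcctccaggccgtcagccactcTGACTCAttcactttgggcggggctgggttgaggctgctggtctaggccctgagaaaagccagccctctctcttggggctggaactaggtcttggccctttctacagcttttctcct
LAMA3 held 2 matches and LAMB3 1. The motif was found in 2707 of all 35116 windows (7.71%). Of the 47 genes, 33 had a window, and 3 held the motif in any of theirs, LAMA3 and ITGA5, which were higher, and LAMB3, which was lower. A match shows only that these letters are present.

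The genes that anchor epithelial cells through hemidesmosomes mostly fell. COL17A1 (ENSG00000065618, chromosome 10, 104031286 to 104085957, minus strand), the transmembrane collagen of hemidesmosomes, had 0.34, 0.25 and 0.50 CPM in shNEDD9 and 13.99, 11 and 12.7 CPM in shNTC. These are 2, 2 and 5 counts against 104, 35 and 81 counts, a 32.5-fold decrease (log2 fold change -5.02, SE 0.30, edgeR adjusted p = 2.55e-64). In shNEDD9 replicates 1 and 2 the counts lay below the limit of detection. The log2 fold change stayed between -5.38 and -4.81 over 16 alternatives, which reuse these same libraries. COL17A1 reached 60 counts through shNTC, which made a difference likelier. COL7A1, the collagen of the anchoring fibrils below hemidesmosomes, had 11.4, 8.90 and 12.6 CPM in shNEDD9 and 23.5, 25.1 and 22.1 CPM in shNTC and was 2.10-fold lower. Of 6 genes of this structure, its laminin and its anchoring fibrils, 4 were lower (ITGB4, COL17A1, LAMB3 and COL7A1), LAMA3 was higher and ITGA6 was not called. Over all genes tested, 35.9% were called lower and 35.5% higher. Summed, the 6 genes differed little, at 258.8 ± 8.68 CPM in shNEDD9 and 273.1 ± 7.17 CPM in shNTC (SD, n = 3 each). Most of both sums was ITGA6 (117.5 and 111.5 CPM) and LAMA3 (117.4 and 65.3 CPM), shNEDD9 and shNTC in turn. The sum thus hides the falls of the other 4 genes. The 5 markers of basal cells, the prostate cells that normally carry hemidesmosomes, summed to the low levels given above. KRT5 had 0 counts and TP63 1, while KRT14 stood at 3.41 CPM in shNEDD9 and 2.44 CPM in shNTC and was not called. KRT15 and NGFR were too low to be tested, at 0.29 and 0.49 CPM in shNEDD9 against 1.43 and 1.72 CPM in shNTC, and the part of basal markers in these values was not tested.

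**Figure D4:**
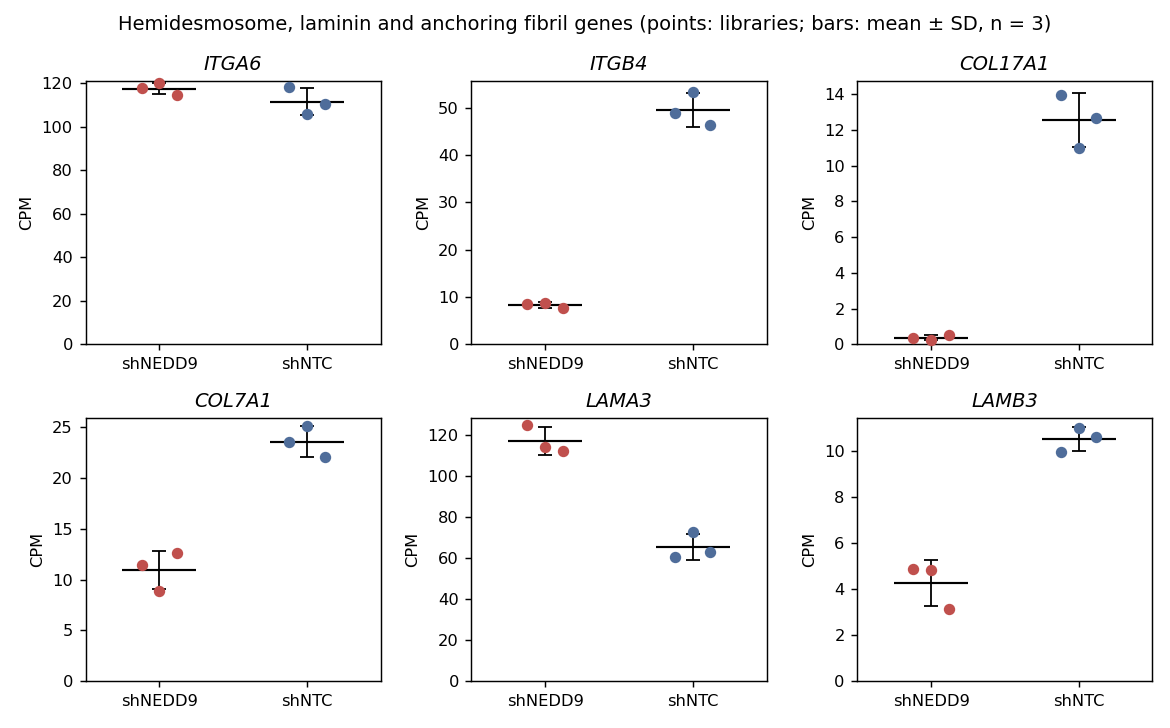
CPM (y axes from 0) of 6 genes of the hemidesmosome, its laminin and its anchoring fibrils, with each library as a point and the mean ± SD as bars, shNEDD9 left of shNTC. ITGB4, COL17A1, COL7A1 and LAMB3 are lower in every shNEDD9 library, LAMA3 is higher, and ITGA6 overlaps.

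The window at the start of COL17A1 (chr10:104085831-104086130, minus strand) is shown as that of the gene with the largest change, with its match to TATAAA, searched on both strands, in capitals.
COL17A1: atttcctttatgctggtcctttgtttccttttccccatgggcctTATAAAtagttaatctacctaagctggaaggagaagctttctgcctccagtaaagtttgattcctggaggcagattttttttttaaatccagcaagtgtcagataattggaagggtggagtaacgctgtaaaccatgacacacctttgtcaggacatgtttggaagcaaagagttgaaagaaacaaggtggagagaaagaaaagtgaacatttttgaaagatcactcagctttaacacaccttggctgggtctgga
It holds 40.7% G and C. TATAAA occurred in 4049 of all 35116 windows (11.5%) and in those of 6 of the 33 genes. In the COL17A1 window its first base lies at -206 from the listed start. A match shows only that these letters are present. The COL17A1 window held no match to TGANTCA, which says only that those letters are not in it.

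Collagens were the largest family, with 12 lower (57.1%), 6 higher (28.6%) and 3 not called of 21 tested. Over all genes tested, 35.9% were called lower and 35.5% higher. COL17A1 and COL27A1 reached 60 counts through shNTC and COL14A1 through shNEDD9, which made their calls likelier. Fibrillar collagens, which form the ropes of connective tissue, were lower where they changed. COL5A2 (chromosome 2, 189031896 to 189225312, minus strand), the α2 chain of type V collagen, had 14.1, 14.2 and 13.3 CPM in shNEDD9 and 65.1, 67.6 and 66.4 CPM in shNTC, a 4.78-fold decrease (log2 fold change -2.26, SE 0.09, edgeR adjusted p = 2.04e-147). COL27A1, a fibrillar collagen of cartilage, had 1, 9 and 14 counts in shNEDD9 and 46, 23 and 37 counts in shNTC, a 6.09-fold decrease. COL11A2, a chain of type XI collagen, was 2.02-fold lower, at 4.59 ± 0.51 CPM in shNEDD9 and 9.42 ± 1.18 CPM in shNTC. COL1A1, the main chain of type I collagen, had 5.37, 4.20 and 4.34 CPM in shNEDD9 and 5.38, 9.74 and 6.57 CPM in shNTC, groups that only just part. Its call (log2 fold change -0.55, edgeR adjusted p = 0.0106) ended without shNTC replicate 2 (edgeR adjusted p = 0.112). COL2A1, the cartilage collagen, was not called (3.09 ± 0.36 CPM in shNEDD9, 3.88 ± 0.34 CPM in shNTC). The 5 fibrillar genes summed to 27.1 ± 0.86 CPM in shNEDD9 and 93.3 ± 5.51 CPM in shNTC, most of it COL5A2. The summed fibroblast markers were higher in shNEDD9, as given above, and their part in these values was not tested. COL1A2, the usual partner of COL1A1, had 8 counts in shNEDD9 and 31 in shNTC.

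Type IV collagens, which form the network of basement membranes, are encoded by 3 pairs of genes that start head to head. COL4A2 (ENSG00000134871, chromosome 13, 110305812 to 110513209, plus strand) had 34.9, 31.8 and 34.8 CPM in shNEDD9 and 14.7, 12.3 and 12.1 CPM in shNTC, a 2.56-fold increase (log2 fold change 1.35, SE 0.11, edgeR adjusted p = 1.40e-36). Its partner COL4A1, whose chain joins that of COL4A2 in the common type IV collagen, had 2 counts over the shNEDD9 and 2 over the shNTC libraries, against 803 and 225 counts of COL4A2. The counts therefore came almost wholly from 1 gene of the pair in both groups. COL4A2 shares 81 and 14 exon bases with 2 antisense transcripts. COL4A5, on the X chromosome, had 23.3, 20.4 and 20.9 CPM in shNEDD9 and 37.1, 38.96 and 34.1 CPM in shNTC and was 1.70-fold lower. Its partner COL4A6 had 2.52, 2.67 and 3.83 CPM in shNEDD9 and 3.50, 1.57 and 1.72 CPM in shNTC, overlapped and was not called (log2 fold change 0.33, SE 0.29), although without shNTC replicate 1 it was (0.89, edgeR adjusted p = 0.0317). The log2 ratio of COL4A6 to COL4A5 was -2.86 ± 0.39 in shNEDD9 and -4.12 ± 0.63 in shNTC.

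The pair on chromosome 2 differed less. COL4A4 had 11.1, 10.2 and 9.48 CPM in shNEDD9 and 6.32, 7.54 and 7.20 CPM in shNTC, a 1.47-fold increase (log2 fold change 0.56, SE 0.17, edgeR adjusted p = 0.00145). COL4A3 had 4.87, 5.34 and 7.97 CPM in shNEDD9 and 5.38, 5.03 and 4.85 CPM in shNTC and was not called (log2 fold change 0.30, SE 0.20), except with the length trend removed (0.45, edgeR adjusted p = 0.0344). The ratio of COL4A4 to COL4A3 overlapped between the groups (exact permutation p = 0.3).

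**Figure D5:**
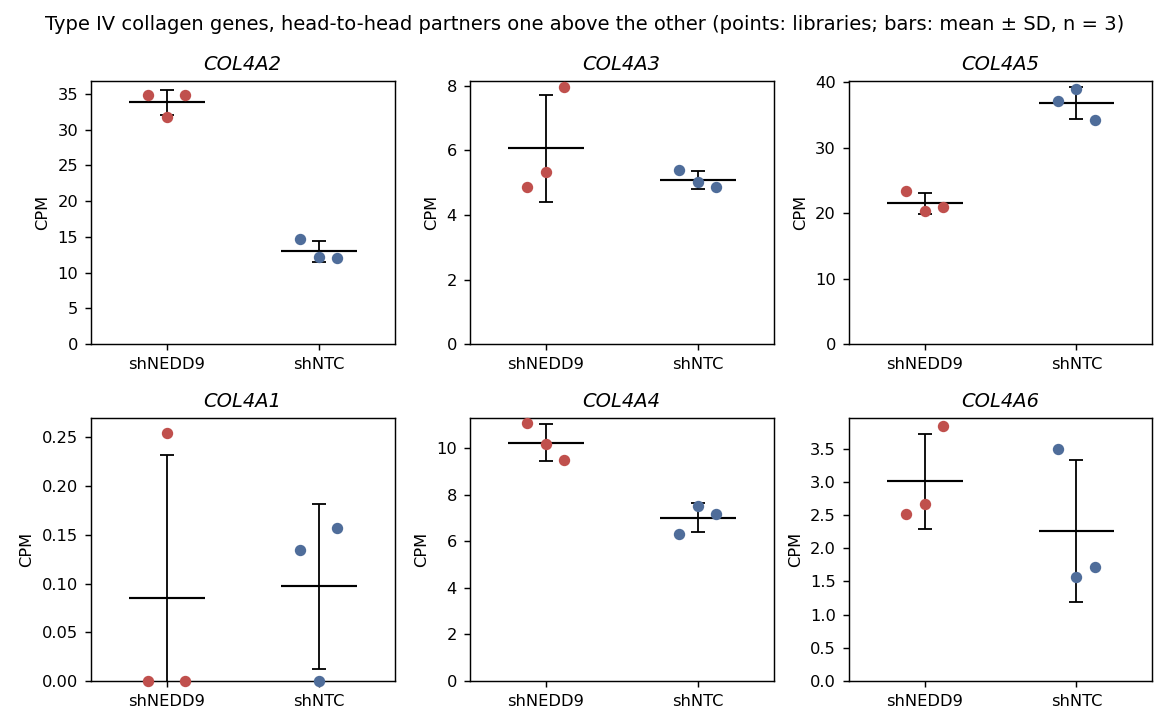
CPM (y axes from 0, scaled per panel) of the 6 type IV collagen genes, each head-to-head pair in 1 column, with libraries as points and mean ± SD as bars, shNEDD9 left of shNTC. COL4A2 and COL4A4 are higher and COL4A5 lower in every shNEDD9 library, and COL4A1 is at most 0.25 CPM in any library.

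Start windows of these 3 pairs are shown because partners that start so close differed in level, direction or call. Capitals mark the bases that the window of the partner gene on the other strand also covers. The listed starts of COL4A2 and COL4A1 lie 127 bases apart, those of COL4A3 and COL4A4 419 and those of COL4A5 and COL4A6 380, and the windows share 226, 82 and 121 bases. The first listed window of each gene was used. COL4A6 has a further one, at chrX:108438373-108438672, that shares no bases with the window of COL4A5. All 3 windows shown are on the plus strand, at chr13:110307034-110307333, chr2:227164374-227164673 and chrX:108439588-108439887.
COL4A2: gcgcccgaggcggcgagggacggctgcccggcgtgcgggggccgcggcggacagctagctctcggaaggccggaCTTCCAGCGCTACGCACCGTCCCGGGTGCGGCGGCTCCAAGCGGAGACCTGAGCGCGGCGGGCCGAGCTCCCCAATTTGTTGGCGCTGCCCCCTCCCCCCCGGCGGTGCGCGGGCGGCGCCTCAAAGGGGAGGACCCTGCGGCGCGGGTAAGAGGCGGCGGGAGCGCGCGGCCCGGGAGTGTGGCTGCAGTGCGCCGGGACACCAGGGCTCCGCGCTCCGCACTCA
COL4A3: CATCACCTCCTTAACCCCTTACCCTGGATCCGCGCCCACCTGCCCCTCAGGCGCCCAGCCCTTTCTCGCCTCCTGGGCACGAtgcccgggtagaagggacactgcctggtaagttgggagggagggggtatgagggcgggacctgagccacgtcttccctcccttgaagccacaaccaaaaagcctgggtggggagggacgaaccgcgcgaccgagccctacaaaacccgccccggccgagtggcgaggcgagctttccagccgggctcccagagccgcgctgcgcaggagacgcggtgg
COL4A5: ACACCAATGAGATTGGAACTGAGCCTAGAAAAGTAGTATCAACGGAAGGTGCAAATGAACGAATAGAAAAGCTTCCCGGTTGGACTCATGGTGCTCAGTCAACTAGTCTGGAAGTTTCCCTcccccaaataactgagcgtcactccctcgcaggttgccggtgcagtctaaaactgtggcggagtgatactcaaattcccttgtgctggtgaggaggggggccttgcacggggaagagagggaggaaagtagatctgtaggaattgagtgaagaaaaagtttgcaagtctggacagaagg
The G and C content was 77.7% in the window of COL4A2, 67.7% in that of COL4A3 and 49.3% in that of COL4A5.

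Among the other collagens, type IX chains moved apart. COL9A3 (chromosome 20, 62816244 to 62841159, plus strand), a chain of the cartilage collagen that coats type II fibrils, rose 4.72-fold, to 22.2, 21.6 and 23.6 CPM in shNEDD9, against 4.03, 5.03 and 5.48 CPM in shNTC (log2 fold change 2.24, SE 0.15, edgeR adjusted p = 2.24e-49). COL9A2, a partner chain in type IX collagen, had 36.3, 38.0 and 36.6 CPM in shNEDD9 and 43.6, 52.5 and 44.5 CPM in shNTC and was 1.23-fold lower. The log2 ratio of COL9A3 to COL9A2 was -0.72 ± 0.09 in shNEDD9 and -3.28 ± 0.22 in shNTC. COL9A3 shares 45 exon bases with TCFL5 on the other strand, which rose by 0.32 on the log2 scale, and its 20 nearest tested genes had a median log2 fold change of 0.12. COL14A1, a fibril-associated collagen, had 21, 51 and 35 counts in shNEDD9 and 9, 2 and 8 counts in shNTC, a 3.99-fold increase, in a stretch of chromosome 8 whose 20 nearest tested genes had a median of 0.45. COL16A1, of the same class, was 1.91-fold lower (2.99 ± 0.17 CPM in shNEDD9, 6.07 ± 1.42 CPM in shNTC).

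Type VI collagen, a beaded filament around cells, stayed close to level. COL6A1 had 44.5, 44.0 and 39.4 CPM in shNEDD9 and 36.0, 39.6 and 35.2 CPM in shNTC, and COL6A2 had 19.97, 18.3 and 21.4 CPM in shNEDD9 and 24.9, 22.6 and 24.4 CPM in shNTC. The first was called 1.16-fold higher, with overlapping groups, and the second 1.21-fold lower. The call of COL6A1 ended without shNTC replicate 3 (edgeR adjusted p = 0.0632), and that of COL6A2 without shNEDD9 replicate 2 (0.0787) or shNTC replicate 1 (edgeR adjusted p = 0.0614). COL6A3, the chain that completes the trimer, had 0 counts in shNEDD9 and 4 in shNTC. COL18A1, the basement membrane collagen that releases endostatin, had 39.4, 44.8 and 41.7 CPM in shNEDD9 and 59.4, 67.2 and 64.5 CPM in shNTC and was 1.49-fold lower. It shares 1401 exon bases with SLC19A1 on the other strand, which rose 1.39-fold. COL26A1, an emilin-related collagen, had 9.23, 8.78 and 10.99 CPM in shNEDD9 and 30.1, 31.4 and 30.8 CPM in shNTC and was 3.12-fold lower. COL28A1, a beaded collagen related to type VI, was called 1.41-fold higher at an edgeR adjusted p of 0.0442, with overlapping groups. Its call ended without shNEDD9 replicate 2 (0.196) or 3 (0.0696) and without shNTC replicate 1 (0.1198) or 3 (edgeR adjusted p = 0.216).

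The other 34 genes had under 60 counts, and 10 of them had 0. LAMA4, a laminin chain of vessels, lay just outside with 59 counts (17 in shNEDD9, 42 in shNTC), followed by COL22A1 with 46 (4 and 42, in the same order) and COL5A1 with 44 (28 and 16). Just inside were ITGA9 with 68 and ITGB2 with 71 counts. COL12A1 had 15 counts and COL10A1 6, all in shNTC, and COL3A1 had 5 in shNEDD9 and 14 in shNTC. ITGB3, the β partner of αV in vessels and platelets, had 4 counts, all in shNEDD9, and ITGA4 had 2. Of the 34, COL22A1 alone passed the filter on low counts.

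Genes that work with these receptors and matrix chains were read from 8 lists, whose members were tested in the same fit. Lists can share genes, as NPNT was in those of integrin ligands and of basement membrane partners, so their counts are not independent. The counts stand beside 35.9% lower and 35.5% higher among all genes tested, whose median log2 fold change was 0.00. No list was tested against the other genes. Of 12 tested other receptors for collagen and laminin, 10 were lower and 1 higher (median log2 fold change -0.87), among them DAG1, the dystroglycan receptor of laminin (320.4 against 623.8 CPM, log2 fold change -0.96, SE 0.03), SDC2, a syndecan (30.4 against 58.5 CPM, -0.96, SE 0.08), and LRP1 (38.3 against 80.5 CPM, -1.06, SE 0.07), shNEDD9 against shNTC. Of 19 other integrin ligands, 15 were lower and 3 higher (median -0.60). VTN, which encodes vitronectin, stood at 2.85 against 64.95 CPM (log2 fold change -4.49, SE 0.12), FN1, fibronectin, at 4.48 against 32.6 CPM (-2.90, SE 0.13), and NPNT, nephronectin, at 10.2 against 89.1 CPM (-3.10, SE 0.09). These are ligands of the αV, α5 and α8 integrins.

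Basement membrane partners were mostly lower, with 9 lower and 3 higher of 13 (median -0.31). FBLN2, fibulin 2, had 126.4 CPM in shNEDD9 and 770.3 CPM in shNTC (log2 fold change -2.60, SE 0.03), and NTN4, a laminin-related netrin, had 5.31 and 46.7 CPM (-3.12, SE 0.12), in that order. Of 6 tested hemidesmosome partners, 5 were lower and 0 higher (median -0.40), including the linker gene PLEC (200.6 CPM in shNEDD9, 447.6 CPM in shNTC, log2 fold change -1.15, SE 0.03) and the luminal keratins KRT8 (-1.43) and KRT18 (-0.42). Of 12 tested genes that cut collagen and laminin or inhibit the cutting, 10 were lower and 0 higher (median -1.195), with ADAMTS1 at 94.3 against 766.7 CPM (-3.03, SE 0.03), MMP10 at 3.03 against 13.7 CPM (-2.14, SE 0.18) and MMP15 at 43.4 against 106.9 CPM (-1.30, SE 0.06), shNEDD9 against shNTC. Both the matrix genes and the enzymes that cut matrix thus held more members that fell than rose.

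Of 25 tested genes that fold and modify collagen, 14 were higher and 6 lower (median 0.23), where 12 of 21 collagen genes were lower and 6 higher. The difference between these sets was not tested. PLOD2, a lysyl hydroxylase, had 105.5 CPM in shNEDD9 and 17.4 CPM in shNTC (log2 fold change 2.59, SE 0.08), and P4HA1, a prolyl hydroxylase subunit, had 107.2 and 37.6 CPM (1.54, SE 0.06), in that order. MIA3, which loads procollagen into export vesicles, fell by 1.11 (235.3 CPM in shNEDD9, 508.9 CPM in shNTC). Of 22 proteins that bind integrin tails or activate integrins, 9 were higher and 11 lower (median -0.10). ITGB3BP, a kinetochore protein first found by its binding to the β3 tail, rose by 1.53 (SE 0.14), and FERMT3, the blood cell kindlin, fell by 1.5 (SE 0.18), each on the log2 scale. Of 12 membrane proteins that associate with integrins, 5 were higher and 5 lower (median -0.10). TSPAN1, a tetraspanin, fell by 2.12 (70.3 CPM in shNEDD9, 306.3 CPM in shNTC), CD82, another, by 0.96, and SLC7A5, the amino acid transporter that pairs with CD98, rose by 1.61 (SE 0.30).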

How the data were processed

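Per the labels' protocols, RNA from column preparations went into stranded total RNA libraries. The deposited table holds raw read counts per gene, and the submitters' processing notes list cutadapt 1.9 and FastQC 0.11.5, the aligner STAR 2.5.3a, Subread 1.6.2 with featureCounts, and the builds hg19 and GRCh38. Annotation release and strand setting are not given in the sources used here, so reads of overlapping or antisense genes may have been mixed or dropped. Libraries held 3217276 to 9902002 counts. 1 row without an identifier was left out.

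Counts were tested with edgeR 4.0.16 (glmQLFit with robust estimation, glmQLFTest, TMM factors, filterByExpr with a minimum count of 10) in R 4.3.3, shNEDD9 over shNTC, with Benjamini-Hochberg adjustment over all 13958 genes tested. Standard errors (SE) are the absolute log2 fold change over the square root of F. CPM use the totals of the tested genes scaled by TMM factors. The fit was tested on simulated data. Coordinates, exon lengths and overlaps came from GENCODE 29 (GRCh38), start windows from RefSeq.

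The members, pairs and lists were chosen with earlier results of these data known. Named with values in each library were the 5 called genes of largest absolute log2 fold change and the 2 most abundant per family, and members of pairs, except that for LAMA1 the mean is given, and from each list the 3 called genes of largest change at a mean of at least 5 CPM. A few genes within the counts are not reported here by name. Tried as alternatives were upper-quartile or RLE factors, unscaled totals, other filters, DESeq2 1.42.0, limma-voom (limma 3.58.1), the replicate number as a block, thinning to the smallest library, removal of the length trend, other count minimums and each library left out.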

Additional observations from a re-analysis of the deposited data

How the results depend on the processing

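Of 731 values of the 46 log2 fold changes under alternatives, 700 kept their direction and side of the threshold, 24 lost the call, 6 gained it and 1 reversed. LAMB4, not called, reversed to -0.041 without shNEDD9 replicate 1 and ranged up to 0.244 as each library was left out. The lost calls were those of COL28A1 (9 of 16 alternatives), COL1A1 and COL6A2 (4 each), COL6A1 and ITGA5 (3 each) and COL16A1 (1), and the cause was not tested. Under DESeq2, COL1A1, COL28A1, COL6A1, COL6A2 and ITGA5 were not called. Family counts stayed within 1.5 times their main value in both directions, except that the count of higher integrin β genes, 0 in the main analysis by edgeR, was 1 (ITGB2) with no count filter and with a mean of at least 1 CPM, and ranged from 0 to 1 as each library was left out. DESeq2 and limma-voom were run on the genes that passed the main filter, which left out ITGB2. The count of 0 that each gave thus says nothing about ITGB2. Among the 5 β genes that they tested, none had a positive log2 fold change, at an unadjusted p under 0.05 or otherwise. With the replicate number as a block, 4881 genes were higher and 4953 lower over the whole table, and COL28A1 was the only member to lose its call (edgeR adjusted p = 0.0966). Deviations of same-numbered libraries had correlations of 0.003 to 0.005, and those of differently numbered libraries -0.005 to 0.001. Counting error adds to every deviation, so values this near 0 cannot exclude that the numbers pair the libraries. With the length trend removed (0.09 at an exon length of 1931 bases, -0.19 at 10580), 5376 genes were higher and 4561 lower. The pairs with separate ratios numbered 19 with a pseudocount, 16 among pairs with at least 10 counts in every library, and 19 to 21 as libraries were left out. Thinned to the smallest library, ITGA5 had a log2 fold change of 0.11 and COL27A1 one of -3.33 (main values 0.39 and -2.61).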

Other observations

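Some genes near these families fell outside the symbol pattern or the count minimum. ITGA2B, the αIIb chain of the platelet fibrinogen receptor, does not match the pattern. It had 3.19, 3.31 and 3.33 CPM in shNEDD9 and 2.29, 0.94 and 0.78 CPM in shNTC and was 2.22-fold higher (edgeR adjusted p = 0.000561), from 103 counts in all. COL22A1, a collagen of tissue junctions with 46 counts, still passed the filter on low counts and was lower (log2 fold change -3.73, edgeR adjusted p = 1.32e-11), with 4 counts in shNEDD9 and 42 in shNTC. MMP1, the interstitial collagenase, was below the level set for naming, at 0.17 CPM in shNEDD9 and 4.66 CPM in shNTC (log2 fold change -4.55), and MRC2, an endocytic collagen receptor, at 0.80 and 3.09 CPM (-2.04), in that order. These genes were named after their values were seen.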
